A study of Mus musculus with 20 samples.

Results

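The RNA of 4 genes was followed in mouse bone marrow neutrophils: *Padi4* and *Padi2*, which encode peptidylarginine deiminases, and *Serpinb1a* and *Slpi*, which encode inhibitors of the neutrophil serine proteases. They were chosen by gene symbol from the 24421 genes that the count files list, for their roles in extracellular trap formation and its control, and all 4 were found and passed the filter on low counts. Neutrophils had been taken by magnetic negative selection from the marrow of female mice, and 20 RNA-seq libraries fell into 4 groups of 5. WT mice were C57BL/6J. *Bmal1 Mye-/-* mice, labelled as a myeloid conditional KO, carried floxed *Bmal1* alleles and a Cre recombinase inserted at *Lyz2*, which is active in neutrophils, monocytes and macrophages alike. Each genotype was studied untreated and after IMQ (imiquimod, a Toll-like receptor agonist in a cream), applied to the ears 3 times per week for 6 weeks from an age of 8 to 10 weeks. The age of the untreated mice is not given in the sources used here, and the WT mice were purchased whereas the *Bmal1 Mye-/-* mice were bred in the authors' facility.

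Neutrophils can release their chromatin as extracellular traps, fibres of DNA and histones coated with granule proteins. Peptidylarginine deiminases convert arginine to citrulline, and PADI4, which enters the nucleus, citrullinates histones and so loosens chromatin during trap release. Neutrophil elastase, cathepsin G and proteinase 3, stored in the primary granules, cut histones and other proteins, and each meets an inhibitor made by the same cell: SERPINB1A inhibits all of them in the cytosol, while SLPI, a small secreted protein with whey acidic protein (WAP) domains, blocks elastase and cathepsin G.

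*Padi4* lies on the minus strand of mouse chromosome 4 (mm10, 140745865 to 140774236) and *Padi2* on the plus strand of the same chromosome (140906344 to 140952586). *Serpinb1a* lies on chromosome 13 (32842092 to 32851185, minus strand) and *Slpi* on chromosome 2 (164354070 to 164389095, minus strand). All 4 are protein-coding genes. Exons of *Padi2* share 149 bases with those of the antisense gene *Gm13031*, which held 0 to 1.05 CPM (a gene's reads scaled to the total that a library has on genes) in any library, and *Slpi* shares 1 exonic base with *Mir7678*. The strand setting of the counting is not given in the sources used here.

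BMAL1 and its partner CLOCK bind the E-box CACGTG, so the start sites of the genes were searched for these letters, which read the same on both strands. RefSeq windows from 250 bases before to 50 bases after the start site (GRCm38.p6, the build mm10) were available for 3 of the 4 genes, *Padi4*, *Padi2* and *Slpi*. The window of *Slpi* held 1 match at position −146 from the start, and that of *Padi4* held 1 at position 45 after it (first base of the match, start site as base 1), while that of *Padi2* held 0. Among 32851 mouse windows of this length, 7.15% held a match. The *Slpi* window (164356458 to 164356757) lies inside the gene span given above, which on this strand begins at 164389095, so its start site is not the outermost one annotated. The 250 bases before the *Slpi* start (chr2:164356508-164356757, minus strand) and the last 30 bases of the *Padi4* window (chr4:140774154-140774183, minus strand) are shown 5′ to 3′ because they carry the match, which is in capitals.
Slpi, upstream: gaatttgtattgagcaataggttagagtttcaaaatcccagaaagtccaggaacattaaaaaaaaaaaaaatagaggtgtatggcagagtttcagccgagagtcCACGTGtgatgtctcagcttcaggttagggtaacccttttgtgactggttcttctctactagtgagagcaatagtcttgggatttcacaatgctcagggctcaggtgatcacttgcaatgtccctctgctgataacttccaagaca
Padi4, after the start: aggatggcccaaggcgcggtgatcCACGTG
A match describes the letters alone and not a bound site. The C/EBP motif TTGCNNAA, searched on both strands and found in 10.8% of windows, had 1 match in *Slpi*, which began 241 bases before its start, and 0 in *Padi4* and *Padi2*. The interferon-stimulated response element, searched as a pair of GAAA with 2 bases between them on both strands and found in 3.44% of windows, had 0 matches in each.

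Between 30782166 and 92613500 reads per library were counted on genes, with a median of 66094896. Of the genes, 14030 had enough counts to be tested, and values are given as CPM after scaling by TMM factors. The 9 neutrophil marker genes analysed here summed to 37750 to 101900 CPM per library, while 9 B-lineage genes summed to 4.88 to 26.03 and 8 T and NK cell genes to 1.19 to 13.2. As a check of the labels, *Lyz2*, where the Cre is inserted, averaged 135 CPM in untreated *Bmal1 Mye-/-* and 11410 in untreated WT, and 98.4 against 8059 with IMQ. *Arntl*, the name of *Bmal1* in the files, averaged 0.721 against 1.35 CPM without IMQ and 0.703 against 1.11 with IMQ, and the libraries of the genotypes overlapped both times. These levels are low and counted over the whole gene, so the extent of the deletion cannot be read from them. Some IMQ libraries stood apart. The 9 genes of the mature neutrophil stage summed to 16960 to 22510 CPM in the untreated libraries, but to 3608 in *Bmal1 Mye-/-* IMQ replicate 1 and to 5133 in WT IMQ replicate 3. The former library also had the highest sum of the 7 monocyte genes, 1723 CPM, against 126.7 to 619.4 in the other 19 libraries. Results that rest on these libraries are given with and without them. In bulk RNA, fewer cells of one kind and less RNA per cell cannot be told apart.

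Under IMQ, *Serpinb1a* rose in both genotypes, to 1.83 times its untreated level in WT and in *Bmal1 Mye-/-*. *Slpi* fell in *Bmal1 Mye-/-*, to 0.544 times its untreated level, and was at 0.821 times in WT, where it did not pass the test. Neither deiminase gene passed in either genotype. None of the 4 genes passed between the genotypes, without or with IMQ, and none passed the test of whether the genotypes differed in their change with IMQ. The test was edgeR's quasi-likelihood test in 1 model of the 4 groups, with Benjamini-Hochberg adjustment over the tested genes and a threshold of 0.05. The labels do not say that each library came from a separate mouse, so p-values measure the spread between these libraries.

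**Figure D1:**
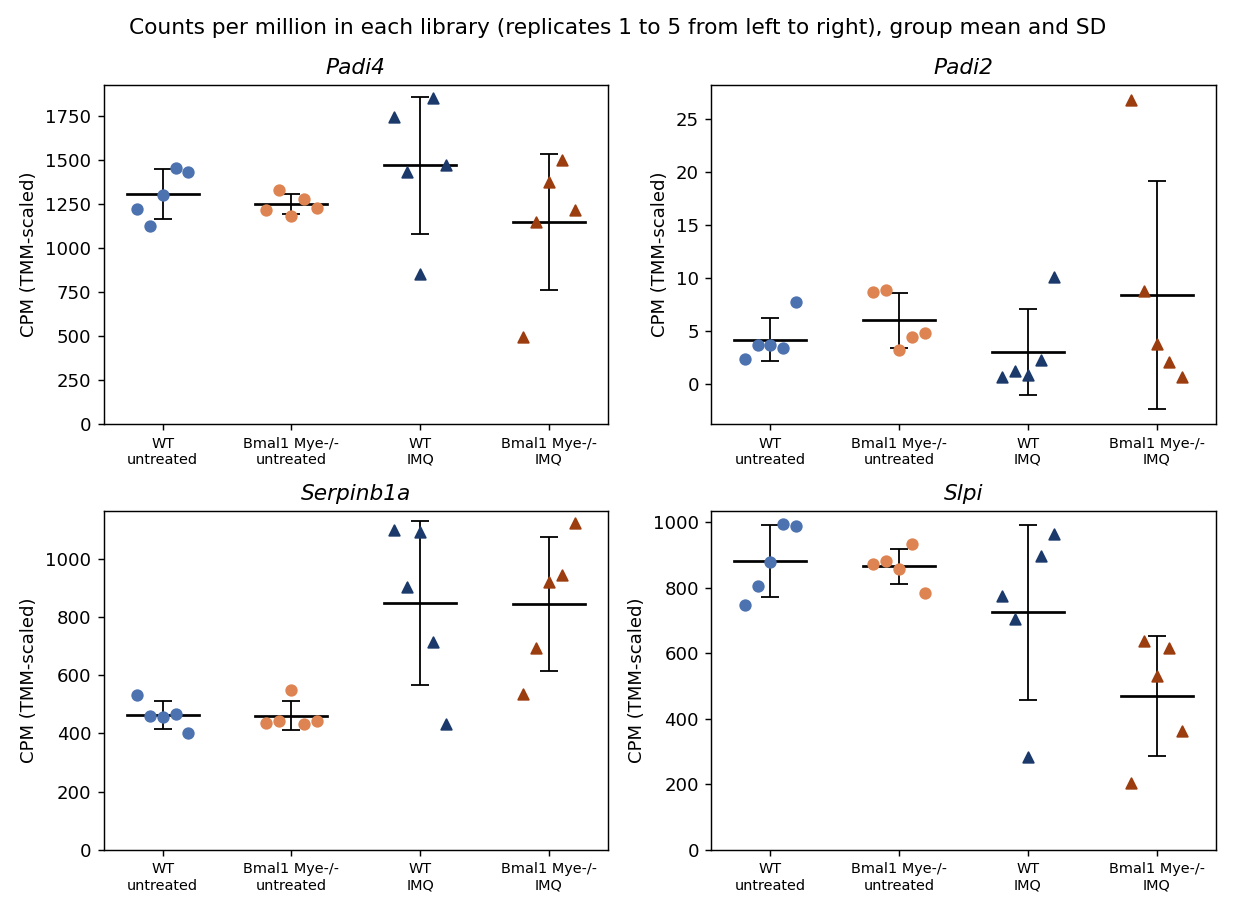
Expression of the 4 genes in each of the 20 libraries, in TMM-scaled CPM on linear axes, with groups on the horizontal axis, replicates 1 to 5 from left to right, and bars for the group mean and SD (n = 5; a lower bar can pass below 0 where the SD exceeds the mean). *Serpinb1a* is above the untreated range in 4 of 5 IMQ libraries of WT, and all 5 *Slpi* values of IMQ-treated *Bmal1 Mye-/-* lie below its untreated libraries.

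Levels were compared between genes per kilobase of exon (RPKM, computed here from the counts and exon lengths). Averaged over the 20 libraries, *Slpi* had the highest level, 623.7 RPKM, rank 47 of 23376 genes with a length. *Serpinb1a* followed at 284 RPKM (rank 122) and *Padi4* at 267 RPKM (rank 140), whereas *Padi2* was at 1.07 RPKM (rank 8515). *Slpi* was thus 2.20 times *Serpinb1a*, and *Padi4* 249 times *Padi2*. In the untreated groups the order by mean was *Slpi*, *Padi4*, *Serpinb1a* and *Padi2*, with 748 ± 93.0, 269.7 ± 29.0, 201 ± 20.3 and 0.831 ± 0.413 RPKM in WT (SD, n = 5), and the libraries of *Slpi* and *Padi4* and of *Padi4* and *Serpinb1a* overlapped in neither pair in WT. With IMQ, *Serpinb1a* (368 ± 122 RPKM in WT and 366 ± 99.9 in *Bmal1 Mye-/-*, SD, n = 5) was above *Padi4* by mean (303.7 ± 80.3 and 237 ± 80.1), but their libraries overlapped in both genotypes.

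*Padi4*, the deiminase of histone citrullination, was strongly expressed and varied little without IMQ. In untreated WT the 5 libraries were at 1218, 1122, 1297, 1452 and 1432 CPM, a mean of 1304 ± 140.3 (SD, n = 5), and in untreated *Bmal1 Mye-/-* at 1215, 1328, 1183, 1278 and 1227 CPM, a mean of 1246 ± 57.2. With IMQ, WT libraries were at 1743, 1429, 851, 1848 and 1470 CPM, a mean of 1468 ± 388, and *Bmal1 Mye-/-* libraries at 497, 1149, 1372, 1496 and 1214 CPM, a mean of 1145 ± 387. The IMQ groups thus spread to both sides of the untreated ones, and the lowest library of each was the one lowest in mature-stage genes. In WT the log2 fold change with IMQ was 0.17 (SE 0.22, adjusted p = 0.707), with a 95% interval from −0.30 to 0.64, and in *Bmal1 Mye-/-* it was −0.12 (SE 0.22, adjusted p = 0.711), from −0.59 to 0.35. Between the genotypes it was −0.07 without IMQ (adjusted p = 1.00, interval −0.53 to 0.40) and −0.36 with IMQ (SE 0.22, adjusted p = 0.328, interval −0.83 to 0.11). The groups overlapped in all 4 comparisons. Without WT IMQ replicate 3 and *Bmal1 Mye-/-* IMQ replicate 1 together, an alternative chosen after seeing the data, the changes with IMQ were 0.30 in WT (adjusted p = 0.0693) and 0.09 in *Bmal1 Mye-/-*, where the sign turned.

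*Padi2*, a deiminase with broad expression outside neutrophils, was weakly expressed, with 31 to 2060 reads per library. Untreated WT libraries were at 2.37, 3.67, 3.63, 3.41 and 7.74 CPM, a mean of 4.17 ± 2.07 (SD, n = 5), and untreated *Bmal1 Mye-/-* libraries at 8.69, 8.86, 3.16, 4.36 and 4.78 CPM, a mean of 5.97 ± 2.63. With IMQ, WT libraries were at 0.645, 1.20, 0.822, 2.22 and 10.1 CPM, a mean of 3.00 ± 4.02, and *Bmal1 Mye-/-* libraries at 26.7, 8.74, 3.71, 2.01 and 0.632 CPM, a mean of 8.36 ± 10.7. In WT, 4 of the 5 IMQ libraries were thus below every untreated one and replicate 5 was above them all, and the *Bmal1 Mye-/-* IMQ libraries spanned a 42.3-fold range that was the range of the whole series. No comparison passed: the log2 fold change with IMQ was −0.47 in WT (SE 0.80, adjusted p = 0.776, 95% interval −2.13 to 1.19) and 0.48 in *Bmal1 Mye-/-* (SE 0.79, adjusted p = 0.672, interval −1.16 to 2.13). Between the genotypes it was 0.52 without IMQ (SE 0.79, adjusted p = 1.00) and 1.48 with IMQ (SE 0.81, adjusted p = 0.282, interval −0.21 to 3.16). The last value rested on single libraries, at 2.76 (adjusted p = 0.222) without WT IMQ replicate 5 and 0.32 (adjusted p = 0.882) without *Bmal1 Mye-/-* IMQ replicate 1, and the change with IMQ was −1.76 (adjusted p = 0.127) in WT without the former and −0.67 (adjusted p = 0.550) in *Bmal1 Mye-/-* without the latter. These wide intervals leave large changes of *Padi2* in either direction undetected at this number of libraries.

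*Serpinb1a*, the cytosolic inhibitor, had nearly the same fitted change with IMQ in both genotypes. Untreated WT libraries were at 533, 460.5, 455.5, 466 and 401 CPM, a mean of 463 ± 46.8 (SD, n = 5), and untreated *Bmal1 Mye-/-* libraries at 435.5, 444, 549.5, 431 and 442 CPM, a mean of 461 with a coefficient of variation of 10.9%. With IMQ, WT libraries were at 1100, 902, 1092, 716 and 433 CPM, a mean of 848 ± 281, and *Bmal1 Mye-/-* libraries at 536, 694, 919, 945 and 1125 CPM, a mean of 844 ± 230.2. In WT, 4 of 5 IMQ libraries were above every untreated one and replicate 5 was among them, and in *Bmal1 Mye-/-* 4 of 5 were above and replicate 1 was just under the highest untreated library. The log2 fold change was 0.87 in WT (SE 0.21, adjusted p = 0.0307, 95% interval 0.43 to 1.32) and 0.87 in *Bmal1 Mye-/-* (SE 0.21, adjusted p = 0.0110, interval 0.43 to 1.32). Of the 4 genes, *Serpinb1a* alone passed in WT, where 3.95% of all tested genes passed and 2.34% passed as higher. In *Bmal1 Mye-/-*, 2 of the 4 passed, *Serpinb1a* and *Slpi*, where 23.5% of all tested genes passed and 14.4% passed as higher. Between the genotypes its log2 fold change was −0.01 without and with IMQ (SE 0.21 each, adjusted p = 1.00 and 0.984, intervals −0.45 to 0.44 in both), and the interaction was 0.00 (SE 0.30, adjusted p = 0.999, interval −0.63 to 0.63). In WT the call was lost in 9 of the 10 fits that left out a library of the comparison (log2 fold changes 0.76 to 0.92, adjusted p from 0.0518 to 0.0920) and held without WT IMQ replicate 5 (1.03, adjusted p = 0.00173). It was also lost with the replicate number as a block (0.85, adjusted p = 0.0639), whereas the call in *Bmal1 Mye-/-* held in every alternative run, from 0.75 to 1.03.

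*Slpi*, the secreted inhibitor, was lower in the IMQ-treated *Bmal1 Mye-/-* libraries than in every untreated library of either genotype. Untreated WT libraries were at 748, 805, 878, 996 and 988 CPM, a mean of 883 ± 109.7 (SD, n = 5), and untreated *Bmal1 Mye-/-* libraries at 872.5, 881, 858, 934 and 783 CPM, a mean of 866 ± 54.4. With IMQ, WT libraries were at 775, 705, 282, 898 and 964 CPM, a mean of 725 ± 267, and *Bmal1 Mye-/-* libraries at 204, 639, 530.2, 615.5 and 364 CPM, a mean of 470.5 ± 184. In WT, 3 of the 5 IMQ libraries were within the untreated range, replicate 2 was slightly below it and replicate 3 far below. In *Bmal1 Mye-/-* the groups did not overlap, as was so for 20.1% of all tested genes in this comparison, and for 9.31% with the IMQ libraries lower. The log2 fold change was −0.88 in *Bmal1 Mye-/-* (SE 0.28, adjusted p = 0.0316, 95% interval −1.46 to −0.30), where 9.04% of tested genes passed as lower, and −0.29 in WT (SE 0.28, adjusted p = 0.585, interval −0.86 to 0.29). The difference between these changes was not shown: the interaction was −0.59 (SE 0.39, adjusted p = 0.640, interval −1.41 to 0.22). The call in *Bmal1 Mye-/-* was lost in 7 of 10 fits that left out a library, at −0.68 (adjusted p = 0.0671) without IMQ replicate 1, −0.80 (adjusted p = 0.0793) without IMQ replicate 5 and −0.89 to −0.85 (adjusted p from 0.0507 to 0.0682) without each untreated library.

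Between the IMQ-treated genotypes, *Slpi* had a log2 fold change of −0.62 in *Bmal1 Mye-/-* (SE 0.28, unadjusted p = 0.0368, adjusted p = 0.243, 95% interval −1.20 to −0.04), in a comparison in which 0.292% of tested genes passed and 19.9% had an unadjusted p under 0.05. The libraries overlapped, through WT IMQ replicate 3, and the IMQ libraries compared here are those of the comparisons with untreated mice. For all 4 genes the groups overlapped between the genotypes and with IMQ in WT. Groups did not overlap for 1.52% of tested genes between the untreated genotypes, 1.07% between the IMQ-treated ones and 6.43% with IMQ in WT. Without WT IMQ replicate 3 the value of *Slpi* was −0.82 and passed (adjusted p = 0.0239), and without this library and *Bmal1 Mye-/-* IMQ replicate 1 it was −0.61 and passed (adjusted p = 0.0241). Many other genes passed in such fits. Over all genes, 41 passed in the main fit, 310 by DESeq2, 1259 without these libraries together and 20 to 3129 without single libraries. Without *Bmal1 Mye-/-* IMQ replicate 1 alone the value of *Slpi* was −0.42 (adjusted p = 0.637). Marker genes moved with this comparison. Fitted values in *Bmal1 Mye-/-* were lower for 8 of 9 mature-stage genes (median log2 fold change −0.65) and 9 of 9 neutrophil markers (median −0.55) and higher for 6 of 7 monocyte genes (median 1.68), with 0 past the threshold in these lists in the main fit. By DESeq2, 4 monocyte genes passed as higher. Without WT IMQ replicate 3, 3 monocyte genes passed as higher and 1 mature-stage gene as lower. Without *Bmal1 Mye-/-* IMQ replicate 1 the monocyte median was 0.536 and 0 passed. Of the eosinophil marker genes, 3 of 8 passed as higher in *Bmal1 Mye-/-* in the main fit, with sums of 39.69 to 206.6 CPM against 18.32 to 38.25 in WT. The part of these cells and stages in the value of *Slpi* was not tested. Without IMQ the value was −0.03 (SE 0.28, adjusted p = 1.00, interval −0.61 to 0.55), where 0.207% of tested genes passed. The interaction of genotype and IMQ passed for 0.0% of tested genes by edgeR and by DESeq2, and 5.14% had an unadjusted p under 0.05. *Padi4* and *Padi2* had interaction values of −0.29 (SE 0.32, adjusted p = 0.698) and 0.95 (SE 1.12, adjusted p = 0.717).

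**Figure D2:**
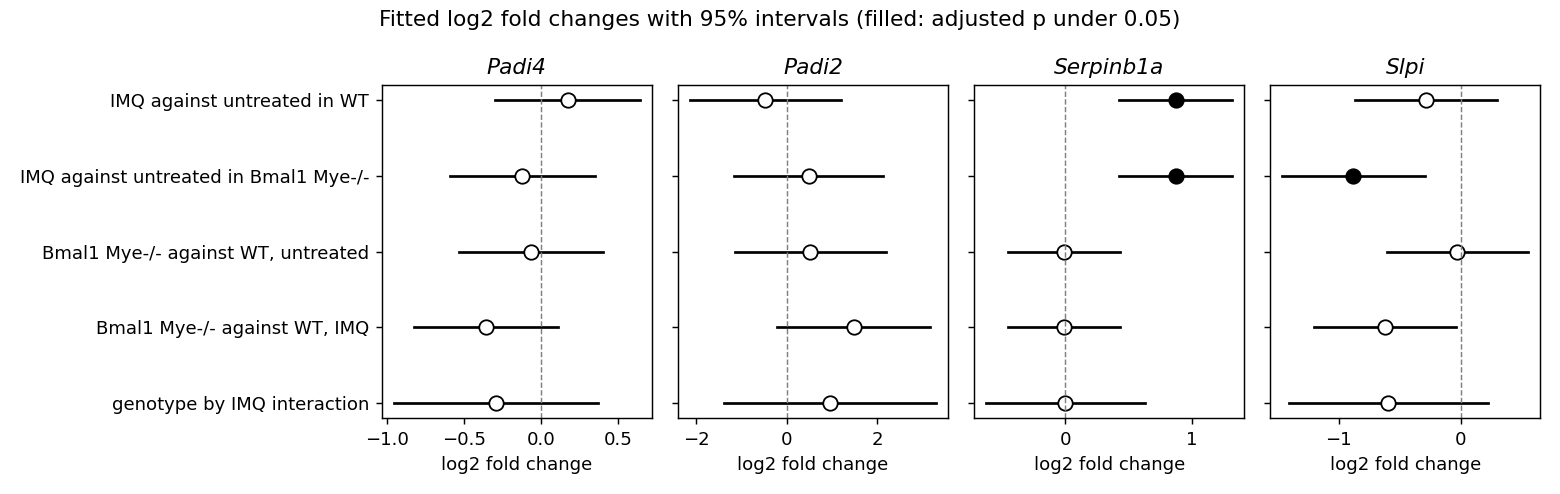
Fitted log2 fold changes (horizontal axes, each gene on its own scale) of the 4 genes in the 5 comparisons, with lines for 95% intervals of the edgeR fit and filled points for an adjusted p under 0.05. The filled points are *Serpinb1a* with IMQ in both genotypes, at 0.87 each, and *Slpi* with IMQ in *Bmal1 Mye-/-*, at −0.88.

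The levels of *Slpi* and *Padi4* both moved with neutrophil markers, and that of *Slpi* most closely with genes of the mature stage, in a comparison added after seeing the data. These lists are not separate: both hold *Mmp8*, *Retnlg*, *Cxcr2* and *Csf3r*. Summed mature-stage genes were at 16960 to 22340 CPM in untreated and 3608 to 16470 in IMQ-treated *Bmal1 Mye-/-*, and all 9 had lower fitted values with IMQ, 3 of them past the threshold, against 1 without IMQ replicate 1 and 0 without IMQ replicate 5 or untreated replicate 4. Levels of the genes were taken as log2(CPM + 2), and sums of markers as log2 of the summed CPM. *Slpi* had a Pearson's r of 0.986 and a Spearman's rho of 0.952 with the mature-stage sum over the 20 libraries, and 0.981 and 0.950 after each value was centred on its group mean (permutation test within groups, adjusted p = 2e-04 over 20 relations, from the smallest p that 100000 resamples can give, 1e-05). Centred r was 0.935 without the 2 libraries farthest from the median. *Padi4* had a centred r of 0.915 and rho of 0.808 with summed neutrophil markers (permutation test, adjusted p = 0.0041 and 0.0027), with r at 0.686 without the 2 farthest libraries. *Slpi* had a centred r of 0.921 and rho of 0.944 with the same markers (permutation test, adjusted p = 0.0009 and 0.0013), with r at 0.85 without the 2 farthest libraries. With the mature-stage sum, *Padi4* had a pooled r of 0.773 that was 0.208 without the 2 farthest libraries, and a centred r of 0.861 that was 0.556 without them. *Serpinb1a* had a pooled r of −0.485 and rho of −0.669 with the mature-stage sum (permutation test, adjusted p = 0.0433 and 0.0046). Within groups it had a centred r of −0.13 and rho of −0.254 (permutation test, adjusted p = 0.801 and 0.573). With summed monocyte genes, however, *Serpinb1a* had a centred r of −0.7 and rho of −0.71 (permutation test, adjusted p = 0.0109 and 0.0249). With summed genes of the secondary granule stage these were 0.667 and 0.668 (permutation test, adjusted p = 0.0425 and 0.0197). What part of the changes with IMQ follows from these marker genes was not tested.

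*Padi2* moved with monocyte genes, which encode among others the receptor of the growth factor CSF1 and the chemokine receptors CCR2 and CX3CR1. Its centred r with the sum of 7 such genes was 0.84 and its rho 0.792 (permutation test, adjusted p = 0.0041 and 0.00672), and r was 0.641 without the 2 farthest libraries. The sum was 277.9 to 388.5 CPM in untreated *Bmal1 Mye-/-*, and with IMQ it was 1723 and 619.4 in replicates 1 and 2 but 162.3, 273.3 and 126.7 in replicates 3 to 5, below every untreated library of this genotype. In this comparison 5 of the 7 genes passed as higher, against 1 without IMQ replicate 1 and 5 without IMQ replicate 2. Reads of *Padi2* from monocytes and from neutrophils cannot be told apart in these libraries.

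Of the 6 pairs among the 4 genes, *Padi2* and *Serpinb1a* had the strongest relation within groups, and it was opposite in sign. Centred on the group means, r was −0.913 and rho −0.925 (permutation test, adjusted p = 1.2e-04 for each), and r was −0.851 without the 2 libraries farthest from the median of *Padi2*. Pooled over the groups, r was −0.659 and rho −0.731 (permutation test, adjusted p = 0.00402 and 0.00162). In each group but untreated *Bmal1 Mye-/-*, the library highest in *Padi2* was the one lowest in *Serpinb1a*, and in untreated *Bmal1 Mye-/-* the library lowest in *Padi2* was the one highest in *Serpinb1a*. With the sum of monocyte genes, *Padi2* had a centred r of 0.84 and *Serpinb1a* of −0.7. The part of these genes in the relation was not tested. *Padi4* and *Slpi* had a centred r of 0.881 and rho of 0.744 (permutation test, adjusted p = 0.0125 and 0.00633), and their pooled r of 0.77 fell to 0.213 without the 2 farthest libraries, so the pooled relation rested on these. On log2(CPM + 0.1) without TMM factors their centred r was 0.771 and did not pass (permutation test, adjusted p = 0.0559), and it was 0.332 without the 2 farthest libraries. Without WT IMQ replicate 5 and *Bmal1 Mye-/-* IMQ replicate 2 it was 0.94 (permutation test, adjusted p = 1.5e-04). *Serpinb1a* and *Slpi* had a pooled r of −0.526 and rho of −0.725 (permutation test, adjusted p = 0.0275 and 0.00162) and a centred r of −0.17 (permutation test, adjusted p = 0.784). This centred r was −0.496 without the 2 farthest libraries and −0.615 (permutation test, adjusted p = 0.123) on log2(CPM + 0.1) without TMM factors, so a relation within groups was not settled.

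**Figure D3:**
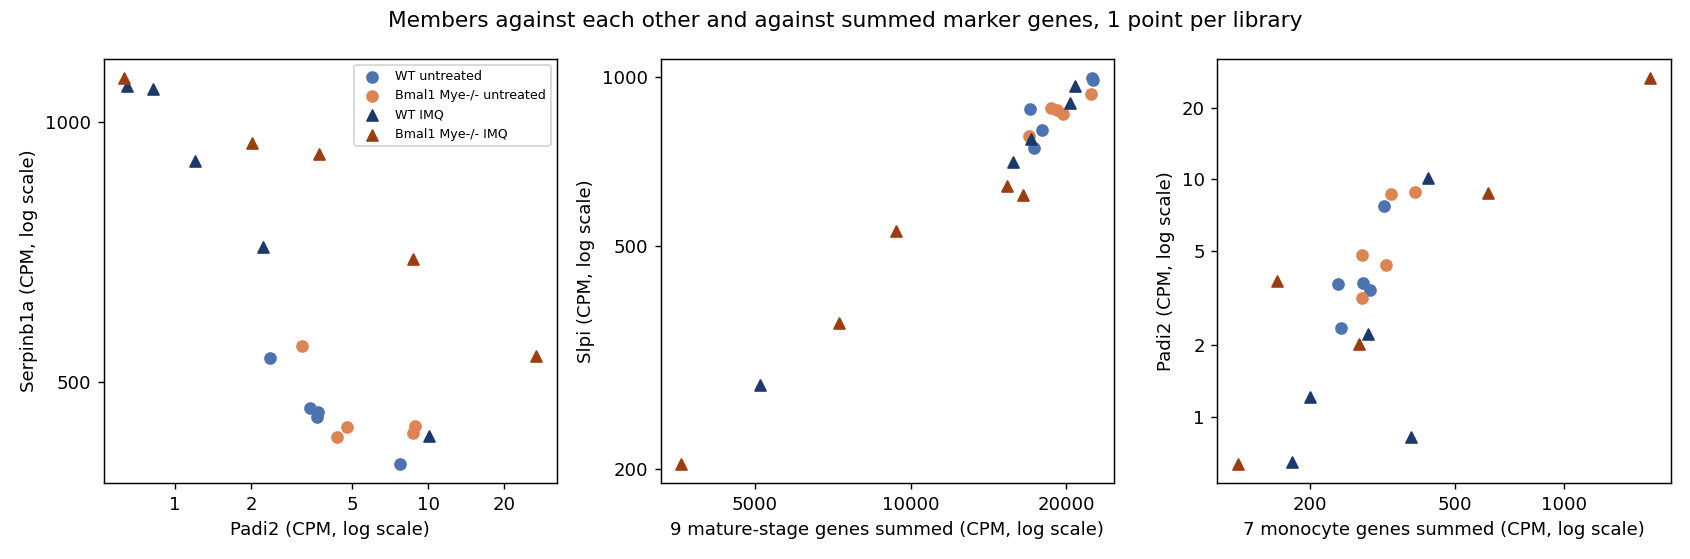
*Serpinb1a* against *Padi2* (left), *Slpi* against the sum of 9 mature-stage genes (middle) and *Padi2* against the sum of 7 monocyte genes (right), 1 point per library, in TMM-scaled CPM on log axes, with colour and shape for the 4 groups. *Slpi* runs along a narrow band from *Bmal1 Mye-/-* IMQ replicate 1 (204 CPM at a sum of 3608) to the untreated libraries, and *Serpinb1a* is lower where *Padi2* is higher.

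Genes whose levels were most like those of each gene were sought among 7021 tested genes with a mean of at least 10 CPM, by r of log2(CPM + 2) over the 20 libraries, and are given as a description. Nearest to *Padi4* were *Aldh3a2* (r = 0.972), *Arpc5*, *Cnn2*, *Fgfr1op2* and *Snx13* (0.964). Nearest to *Padi2* were *Anxa6* (0.844), *Pygb*, *Ctsa*, *Arhgap26* and *Tifab* (0.828), a looser likeness than for the other 3 genes. Nearest to *Serpinb1a* was *Serpinb6a* (0.965), another cytosolic serpin of clade B encoded on the same chromosome, then *Sugt1*, *Asnsd1*, *Slc17a9* and *Prss16* (0.959). Nearest to *Slpi* were *Atg7* (0.994), which encodes an enzyme of autophagy, *Taldo1*, *S100a11*, *Rnf167* and *Ccpg1* (0.986).

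The other genes of the pathway were counted in 7 lists, beside a median log2 fold change over all tested genes of 0.03 in WT and 0.02 in *Bmal1 Mye-/-* with IMQ. The counts stand beside 3.95% of all tested genes that passed in WT and 23.5% in *Bmal1 Mye-/-*, and none is read as particular to a list. Of the 3 other deiminase genes tested, *Padi1*, *Padi3* and *Padi6*, none passed in any comparison. *Padi3* averaged 3.04 CPM over the libraries and *Padi6* 0.228 CPM, and their log2 fold changes with IMQ were 0.06 and 0.61 in WT and 0.00 and 0.01 in *Bmal1 Mye-/-*. Of 20 genes of trap formation, 1 rose in WT and none fell (median 0.03), and 3 rose and 1 fell in *Bmal1 Mye-/-* (median −0.02). *Vim*, which encodes the filament protein vimentin, rose in both, by log2 fold changes of 0.62 in WT (SE 0.11, adjusted p = 0.0113) and 0.57 in *Bmal1 Mye-/-* (SE 0.11, adjusted p = 0.00586). In WT it missed the threshold in the analysis of variance (adjusted p = 0.0551) and with only the 2 groups (adjusted p = 0.0506). *Hmgb1* and *Hmgb2*, which encode chromatin proteins found in traps, rose in *Bmal1 Mye-/-* by 0.78 and 0.68 (adjusted p = 0.0167 and 0.00894). *Syk*, a kinase of Fc receptor signalling, fell there by 0.68 on the log2 scale (adjusted p = 0.0371), a call lost without any one of 8 libraries.

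Of the serine proteases that SERPINB1A and SLPI block, none passed with IMQ. *Elane* (neutrophil elastase) had log2 fold changes of −0.87 in WT (SE 0.54, adjusted p = 0.357) and 0.31 in *Bmal1 Mye-/-* (SE 0.53, adjusted p = 0.692). *Prtn3* (proteinase 3) was at 0.02 and 1.09 (SE 0.57 and 0.58, adjusted p = 0.991 and 0.162), and *Ctsg* (cathepsin G) at −0.45 and 1.04. In the list of 5 genes made of these, *Prss57* and *Ctsc*, the peptidase that activates them, 0 passed in WT (median −0.04) and 1 in *Bmal1 Mye-/-* (median 1.04). That gene, *Ctsc*, rose from 19.9 ± 7.26 to 107.8 ± 116 CPM (SD, n = 5), by a log2 fold change of 2.43 (SE 0.45, adjusted p = 0.00473). Its 5 IMQ libraries ran from 36.4 to 313 CPM, all above the untreated ones at 14.9 to 31.2. The value lay between 1.51 and 2.67 and passed in each of the 10 fits without a library. Between the IMQ-treated genotypes, all 5 genes of this list had higher fitted values in *Bmal1 Mye-/-* (median 1.11, against 0.03 over all tested genes) and none passed. *Elane* and *Prtn3* were each at 1.11 there (SE 0.54 and 0.58, adjusted p = 0.253 and 0.265). *Elane*, *Prtn3* and *Ctsg* are also among the 5 genes of the primary granule stage, whose sum was 184.6 to 1160 CPM in untreated and 112.4 to 747.5 in IMQ-treated WT, and 366.2 to 944.6 and 250.5 to 1668 in *Bmal1 Mye-/-*.

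Among genes related to *Serpinb1a*, 7 of 21 clade B serpins had enough counts to be tested. None passed in WT (median 0.29), where *Serpinb10* and *Serpinb6a* had the highest levels and log2 fold changes of 0.29 and 0.53 (adjusted p = 0.513 and 0.0982). In *Bmal1 Mye-/-* 2 rose and none fell (median 0.47): *Serpinb6a*, by 0.65 (SE 0.18, adjusted p = 0.0193), from 27.7 to 43.6 CPM, and *Serpinb8*, by 1.60 (SE 0.57, adjusted p = 0.0485), from 0.295 to 0.923 CPM, a call lost in 8 of 10 fits without a library. The near copies *Serpinb1b* and *Serpinb1c* were not tested, with 0 to 36 reads per library, against 16327 to 85475 for *Serpinb1a*. Among genes related to *Slpi*, 3 of 19 WAP domain genes in the files were tested and 1 rose in each genotype, *Wfdc17*, by 1.64 in WT (SE 0.36, adjusted p = 0.0218) and 1.03 in *Bmal1 Mye-/-* (SE 0.36, adjusted p = 0.0437). Both calls were lost without some of the libraries, 6 of 10 and 7 of 10. *Wfdc17* and *Slpi* thus had opposite fitted directions in both genotypes.

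The list of other protease inhibitors, with 17 genes tested, also holds *Serpinh1*, which is not an inhibitor. In this list 1 gene rose and 1, *Serpinh1*, fell in WT (median −0.22). In *Bmal1 Mye-/-*, 1 rose and 3 fell, *Serpinh1* among them (median 0.40), where 14.4% of all tested genes rose and 9.04% fell. *Serpinh1*, a chaperone of collagen that does not inhibit proteases, fell in both, with log2 fold changes of −1.898 in WT (SE 0.45, adjusted p = 0.0275) and −1.79 in *Bmal1 Mye-/-* (SE 0.44, adjusted p = 0.0115). Its call in WT was lost in 7 of 10 fits without a library and with the replicate block. *Serpina3n*, a secreted inhibitor of the acute phase, was at 0 to 4 reads in the untreated libraries and 0 to 129 with IMQ, and passed as higher in both (adjusted p = 0.0372 and 0.0218). At these few reads the calls were unstable: without a library the call was lost in 8 of 10 fits in WT and in 1 of 10 in *Bmal1 Mye-/-*, and both were lost with the replicate block (adjusted p = 0.0921 and 0.0535) and in the analysis of variance. In *Bmal1 Mye-/-*, *Timp2*, an inhibitor of metalloproteinases, fell from 365 ± 19.5 to 181.5 ± 83.9 CPM (SD, n = 5), by 1.01 on the log2 scale (SE 0.32, adjusted p = 0.0319), and *A2m* fell by 3.16 on the log2 scale from 0.667 CPM (adjusted p = 0.0164). Of 5 nucleases that degrade trap or cytosolic DNA, none passed in WT (median 0.18) and 2 rose in *Bmal1 Mye-/-* (median 0.38), *Dnase1l1* by 0.38 (SE 0.12, adjusted p = 0.0319) and *Dnase2a* by 1.04 (SE 0.37, adjusted p = 0.0469). The calls of *Timp2*, *Dnase1l1* and *Dnase2a* were each lost without *Bmal1 Mye-/-* IMQ replicate 1, with *Dnase2a* then at 0.52 (adjusted p = 0.215).

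Between the genotypes and in the interaction, 0 genes of the 7 lists passed by edgeR. With IMQ this count rested on 1 library: without WT IMQ replicate 3, 5 trap formation genes, 2 genes of the protease list, 2 other inhibitors and 1 nuclease passed. By DESeq2, 1 gene of the protease list and 1 other inhibitor did. Over all genes, 41 passed in this comparison in the main fit, 20 to 3129 without single libraries and 310 by DESeq2. These list counts are therefore not read as particular to a list. The most abundant genes of the lists were also compared between the IMQ-treated genotypes. Their log2 fold changes of *Bmal1 Mye-/-* against WT were 0.05 for *Camp*, −0.34 for *Ncf1*, 0.04 for *Serpinb10*, −0.17 for *Wfdc21*, −0.02 for *Cst3*, −0.62 for *Timp2*, −0.30 for *Trex1* and −0.08 for *Padi3*. Standard errors ran from 0.13 for *Cst3* to 0.60 for *Trex1*. Between the untreated genotypes the same genes lay between −0.19 for *Camp* and 0.16 for *Timp2*.

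**Figure D4:**
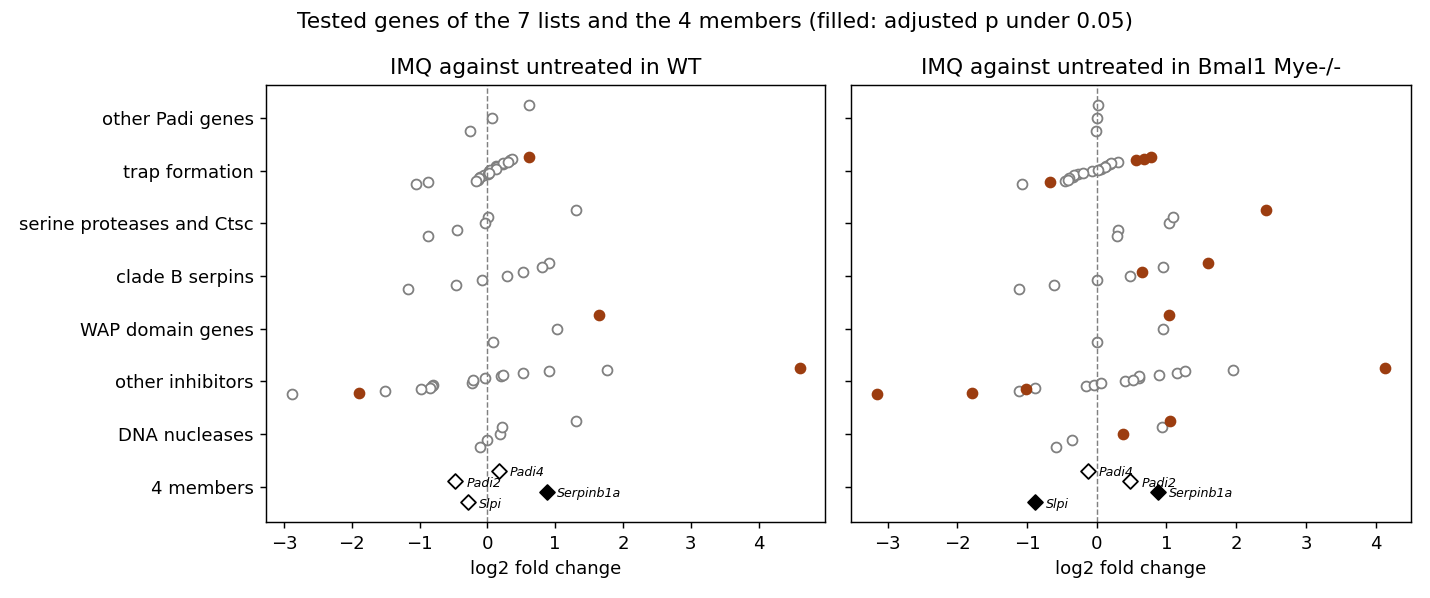
Log2 fold changes with IMQ (horizontal axes) of the tested genes of the 7 lists and of the 4 genes, in WT (left) and *Bmal1 Mye-/-* (right), with 1 circle per gene, spread vertically within its list, and filled symbols for an adjusted p under 0.05. Few list genes are filled: *Ctsc* at 2.43 is the filled gene of the protease list in *Bmal1 Mye-/-*.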

How the data were processed

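The authors isolated neutrophils, prepared RNA libraries and sequenced them. The paper names an Illumina NovaSeq or NextSeq instrument, and which library was run on which is not given in the sources used here. The submitters' processing notes name bcl2fastq, STAR 2.7.8a and HTSeq 2.0.1 and the build mm10, whereas the paper's methods name TopHat. The annotation and the strand setting are not given in the sources used here. The deposited files hold raw counts per gene, without normalization, and a table of the whole series with the same counts was not used. Of the reads a file accounts for, 51.9% to 57.8% lay on no feature and 37.4% to 41.9% on genes, and the summary lines were left out of library sizes. Gene positions and exon lengths were taken from GENCODE M21, with a length for 23376 of 24421 genes.

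The tests were run with edgeR 4.0.16 (R 4.3.3). Its default filter removed weakly counted genes, library sizes were scaled by TMM (0.854 to 1.38), and 1 quasi-likelihood model held the 4 groups, with p-values adjusted over the 14030 tested genes. The fit was run on simulated counts, with changes set in WT IMQ only and no shift shared by the genes of a library. It therefore does not measure how such shifts move the calls. Standard errors were computed from the F statistic. Correlations used log2(CPM + 2), with sums of markers as log2 of the summed CPM, and permutation tests with 100000 resamples. Counting error was not assessed apart from the spread between libraries. Named genes were all 4 members, the genes of each list past the threshold (at most the 4 largest changes per list and comparison, or the 2 most abundant where none passed), and the 5 genes most like each member. *Arntl* and *Lyz2* served as a check of the labels. The members, the gene lists and the 11 marker lists were chosen with earlier results of these data known. Alternatives were DESeq2 1.42.0, RLE factors, no filter, at least 10 counts in every library, an analysis of variance with limma 3.58.1 on log2(CPM + 0.1), which departs from the study's own, made on RPKM with an offset in RPKM and in other software, only the 2 groups compared, the replicate number as a block, each library left out, and WT IMQ replicate 5 and *Bmal1 Mye-/-* IMQ replicate 2 left out together. The removal of WT IMQ replicate 3 and *Bmal1 Mye-/-* IMQ replicate 1, the relations to marker sums and the marker counts without libraries were added after seeing the data. The labels number replicates alike in each group. Residuals of same-numbered libraries had an r over genes of 0.107 to 0.48 between IMQ-treated and untreated *Bmal1 Mye-/-*, over 0.1 in all 5 pairs, so the numbers may mark pairs there. The main tests nonetheless used no pairing, and the block was run as an alternative only. For IMQ in WT the r values were 0.0328 to 0.654, and between the genotypes −0.394 to 0.477 without and −0.562 to 0.353 with IMQ. The block changed no call of the members in *Bmal1 Mye-/-* (*Serpinb1a* 0.89, adjusted p = 0.0162, and *Slpi* −0.92, adjusted p = 0.0323).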

Additional observations from a re-analysis of the deposited data

Results flagged for a closer look

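In each of the 16 combinations of a gene and a group, the distance of the highest or the lowest library from its nearest neighbour was compared with the group's range (Dixon's test at 5 libraries, critical value 0.71). Chance marks about 1 in 20 such groups, and 3 of 16 were marked. *Padi2* was at 7.745 CPM in untreated WT replicate 5 (gap 0.759 of the range), where the other 4 libraries were at 2.37 to 3.67. It was at 10.11 CPM in WT IMQ replicate 5 (gap 0.834 of the range), where the other 4 were at 0.645 to 2.22. *Serpinb1a* was at 549.5 CPM in untreated *Bmal1 Mye-/-* replicate 3 (gap 0.889 of the range), where the other 4 were at 431 to 444. This library had the fewest reads on genes, 30782166. WT IMQ replicate 5 was also the lowest of its group in *Serpinb1a*, at 433 CPM, and the highest in *Slpi*, at 964 CPM.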

How the results depend on the processing

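Of 416 values of the 4 genes under the alternatives, 356 kept their direction and their side of the threshold, 19 lost a call, 2 gained one and 39 turned sign, and none that turned had passed. The fall of *Slpi* in *Bmal1 Mye-/-* held in the 9 alternatives that did not leave out single libraries (−0.99 to −0.67) and ran from −0.99 to −0.68 over those that did. With the replicate block, *Serpinb1a* in WT was at 0.85 (adjusted p = 0.0639) and the count of genes called with IMQ in WT was 190 in place of 554. The block changed no other call of the 4 genes, and *Serpinb1a* between IMQ-treated genotypes turned to 0.0218 with it. *Serpinb1a* in WT was also short of the threshold in the analysis of variance (0.74, adjusted p = 0.0847) and with only the 2 groups (0.86, adjusted p = 0.0671), and ran from 0.76 to 1.03 without single libraries.

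*Serpinb1a* between the untreated genotypes turned to 0.00493 with DESeq2, 0.0051 with RLE factors, 0.00151 with at least 10 counts and 0.00262 in the analysis of variance (−0.10 to 0.03 without single libraries). Between the IMQ-treated genotypes it turned to 0.00994 without the filter, 0.00853 with at least 10 counts, 0.22 in the analysis of variance and 0.00823 with only the 2 groups (−0.16 to 0.13 without single libraries). Its interaction turned to −0.016 with DESeq2, −0.0161 with RLE factors and −0.0712 without WT IMQ replicate 5 and *Bmal1 Mye-/-* IMQ replicate 2 (−0.14 to 0.15 without single libraries). *Padi2* with IMQ in *Bmal1 Mye-/-* turned to −0.28 in the analysis of variance (−0.67 to 0.79 without single libraries). Without single libraries *Padi4* with IMQ in *Bmal1 Mye-/-* ran from −0.21 to 0.0823, the interaction of *Padi2* from −0.20 to 2.25, *Slpi* between the untreated genotypes from −0.10 to 0.00446 and between the IMQ-treated ones from −0.82 to −0.42. Without WT IMQ replicate 3 and *Bmal1 Mye-/-* IMQ replicate 1 together, *Padi4* and *Padi2* with IMQ in *Bmal1 Mye-/-* turned to 0.0948 and −0.67, *Serpinb1a* between IMQ-treated genotypes to 0.26 and the interaction of *Padi2* to −0.43, and *Slpi* between IMQ-treated genotypes passed at −0.61.

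Counts over all genes moved more. With IMQ in WT, 554 genes became 1494 with DESeq2, 326 without the filter, 186 with only the 2 groups, 2129 without WT IMQ replicate 5 and *Bmal1 Mye-/-* IMQ replicate 2, 899 without the libraries lowest in mature-stage genes and 48 to 1989 without single libraries. In *Bmal1 Mye-/-*, 3292 became 1612 to 4037 without single libraries. Between the untreated genotypes, 29 became 59 with only the 2 groups. Between the IMQ-treated genotypes, 41 became 310 with DESeq2, 16 with only the 2 groups, 22 without WT IMQ replicate 5 and *Bmal1 Mye-/-* IMQ replicate 2, 1259 without the libraries lowest in mature-stage genes and 20 to 3129 without single libraries. The interaction passed for 0 genes, and for 0 to 1 without single libraries. Relations that turned sign, all weak, were those of *Padi4* and *Serpinb1a* (−0.129 pooled, −0.107 centred) and of *Padi2* and *Slpi* (0.113 and 0.0801) on log2(CPM + 0.1), and of *Serpinb1a* and *Slpi* (centred, 0.131) without WT IMQ replicate 5 and *Bmal1 Mye-/-* IMQ replicate 2. The causes were not tested.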

Other observations

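*Wfdc21*, which encodes another secreted protein with a WAP domain, was more abundant per length than *Slpi* and differed in its pattern. It averaged 1569 ± 88.2 RPKM in untreated WT and 1664 ± 176 with IMQ (SD, n = 5), against 748 ± 93.0 and 614 ± 226 for *Slpi*. In *Bmal1 Mye-/-* it averaged 1484 ± 192 without and 1482 ± 465 with IMQ, against 734 ± 46.1 and 399 ± 156 for *Slpi*. Its log2 fold changes with IMQ were 0.08 in WT (SE 0.17, adjusted p = 0.820) and 0.00 in *Bmal1 Mye-/-* (SE 0.17, adjusted p = 0.993) (edgeR). *Trex1*, which encodes a nuclease that degrades cytosolic DNA, was the most abundant nuclease of its list, with log2 fold changes of 1.31 in WT (SE 0.61, adjusted p = 0.208) and 0.93 in *Bmal1 Mye-/-* (SE 0.60, adjusted p = 0.255).

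Among the 11 lists of cell type and stage markers, genes passed with IMQ in WT in 2 lists, 1 of 5 tested erythroid genes as higher and 2 of 8 eosinophil genes as lower. These stand beside 2.34% of all tested genes that passed as higher and 1.6% as lower in WT, and 14.4% and 9.04% in *Bmal1 Mye-/-*. With IMQ in *Bmal1 Mye-/-*, 5 of 7 monocyte genes and 1 of 5 basophil and mast cell genes passed as higher, and 3 of 9 mature-stage, 3 of 8 B-lineage, 2 of 4 T and NK cell, 1 of 9 neutrophil and 1 of 8 eosinophil genes as lower. Of the primary granule, secondary granule and macrophage lists, 0 genes passed in either. Between the IMQ-treated genotypes, 3 of 8 eosinophil genes passed as higher in *Bmal1 Mye-/-*, with sums of 39.69 to 206.6 CPM against 18.32 to 38.25 in WT, and 0 genes of the other 10 lists passed in the main fit. Without WT IMQ replicate 3, 3 monocyte genes and 1 mature-stage gene passed. Over all genes, 20 to 3129 passed in this comparison without single libraries. The eosinophil count was 0 to 5 without single libraries. Between the untreated genotypes 0 passed in any of the 11 lists. The 4 globin genes of the erythroid list were listed at 0 in every library.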
